A study of Rattus norvegicus with 24 samples.

Results

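Cdh1, Dsp, Epcam, Krt8, Krt18, Wnt10a and Amigo3 are 7 genes of cell adhesion and epithelial structure. They were chosen on their lower RNA signal in midbrain of intact rats whose arrays were labelled paced than in those labelled chamber, so the mating differences of the intact rats are given below as a description and without a test. Their probe sets were found by the gene symbol of the array annotation, which gave 9 of the 31099 probe sets on the Affymetrix rat expression array. Of these, 8 were among the 27035 probe sets kept after a filter on low signals, and all 7 genes had a probe set kept. The second Cdh1 probe set was removed, since its signals lay at or below percentile 1.54 on all 24 arrays.

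Epithelial cells are held together by junctions. E-cadherin (Cdh1) joins neighboring cells at adherens junctions, and desmoplakin (Dsp) anchors keratin filaments to desmosomes, where keratin 8 (Krt8) and keratin 18 (Krt18) form the filament pair of simple epithelia. Nervous tissue has few such cells, which in and around the brain include the secretory epithelium of the anterior pituitary and the epithelium of the choroid plexus, while E-cadherin is also made by cells of the leptomeninges.

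RNA was measured on 24 arrays of Long-Evans female rats aged 50 to 60 days, after a paced mating test with a male or after exposure to the mating chamber alone. The intact rats were in proestrus and have 2 sets of arrays, which are called number-named and Intact-named here after the style of their titles. Ovariectomized (OVX) rats and ovariectomized and adrenalectomized (OVX/ADX) rats, with 6 arrays in each group, had received 10 μg of estradiol benzoate 44 h before testing, at 10 days after surgery. Each set holds 3 arrays labelled paced and 3 labelled chamber. The labels do not say whether the 12 intact arrays come from 12 rats, and the study's methods describe 6 intact rats, so p-values measure the spread between arrays. The OVX/ADX arrays 2541 and 2530 carry titles of the same number series as the number-named intact arrays, and the study's methods describe the death of 1 OVX/ADX rat. The lowest signal of an array was 3.58 to 3.65 for number-named, 2.30 to 2.39 for Intact-named and OVX and 3.38 to 3.43 for OVX/ADX arrays, which was taken to mark 3 normalization runs. Levels were therefore tested within runs only, and the Intact-named and OVX sets form the shared run.

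The sets differed in markers of the labelled tissue. Th, tyrosine hydroxylase of dopamine neurons, had a median percentile among the probe sets of its array of 94.6 on number-named and 92.3 on OVX/ADX arrays. Its median percentile was 33.5 in the Intact-named and 36.9 in the OVX set. Slc17a7, a vesicular glutamate transporter of forebrain projection neurons, ran the other way, at 97.9 and 97.6 on Intact-named and OVX arrays and at 52.6 and 55.1 on number-named and OVX/ADX arrays. The Intact-named and OVX arrays thus carried low signals of a defining midbrain transcript. In tissue RNA, fewer cells of a type and less RNA per cell cannot be told apart.

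Krt8 and Krt18 moved together in all 4 sets of 6 arrays, as a description, at r 0.84 to 0.99. Epcam, an adhesion protein of the epithelial surface, correlated with them at r 0.87 to 0.98 in each set except OVX. In OVX, r was −0.05 and 0.07. The members were chosen on a shared label difference in the number-named set. In the OVX/ADX set, array 2541 was far above the others for Krt8, Krt18 and Epcam. Every pair of members without Cdh1 had r of 0.79 to 0.99 in the number-named and 0.89 to 0.99 in the OVX/ADX set. High r in those sets is therefore not particular to Krt8, Krt18 and Epcam. In the Intact-named and OVX sets r between Krt8 and Krt18 was 0.84 and 0.92. The promoters of Krt8, Krt18 and Epcam are shown, each with 250 bases before and 50 after the gene's start, from RefSeq on build GRCr8. Krt8 lies on chromosome 7 at chr7:135002886-135010339 on the minus strand, and Krt18 at chr7:135036168-135039844 on the plus strand, so that the pair is transcribed away from each other with 25828 bases between them. Epcam lies at chr6:12633715-12649678 on the minus strand. The printed windows are chr7:135010290-135010589, chr7:135035918-135036217 and chr6:12649629-12649928, and capitals mark the E-box read as CACCTG or, on the other strand, CAGGTG.
Krt8: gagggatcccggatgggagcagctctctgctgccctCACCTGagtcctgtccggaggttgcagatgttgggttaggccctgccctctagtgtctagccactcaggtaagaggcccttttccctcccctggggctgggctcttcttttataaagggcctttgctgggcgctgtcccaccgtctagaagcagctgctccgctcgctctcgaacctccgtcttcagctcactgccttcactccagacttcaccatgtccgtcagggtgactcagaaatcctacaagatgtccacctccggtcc
Krt18: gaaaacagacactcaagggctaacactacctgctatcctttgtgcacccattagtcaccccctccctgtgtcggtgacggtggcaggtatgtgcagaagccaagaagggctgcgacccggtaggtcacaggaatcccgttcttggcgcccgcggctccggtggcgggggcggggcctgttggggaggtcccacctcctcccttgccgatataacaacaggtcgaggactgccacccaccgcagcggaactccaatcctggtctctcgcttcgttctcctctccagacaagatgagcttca
Epcam: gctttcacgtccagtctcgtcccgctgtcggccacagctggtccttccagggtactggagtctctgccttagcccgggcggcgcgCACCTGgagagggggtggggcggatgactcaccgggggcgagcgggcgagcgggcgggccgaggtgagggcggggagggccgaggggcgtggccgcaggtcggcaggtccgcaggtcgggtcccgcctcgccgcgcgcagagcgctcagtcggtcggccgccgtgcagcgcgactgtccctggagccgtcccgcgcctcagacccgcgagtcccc
An E-box of these letters was found in 5 of the 6 members with a promoter sequence, against 18.8% of 33465 promoters of the same length. Cdh1 is the member without one, so its promoter was not read. A GC box, GGGCGG or CCGCCC, was found in 3 of 6, against 33.1%. The letters TATAAA or TTTATA were found in 1 of 6, the Krt8 promoter, where both readings overlap, against 14.2%. Of the promoters shown, the E-box is present in those of Krt8 and Epcam and not in that of Krt18. These matches describe the letters only.

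In the number-named intact set, 6 of the 7 genes were lower on every array labelled paced than on every array labelled chamber, where 8.17% of all probe sets were. This is the contrast on which the genes were chosen. The labels were used as deposited, and the study describes pituitary hormone transcripts, S100g and Cdh1 as higher after paced mating, which is the opposite of the direction under the deposited labels of this set. The sign of each number-named difference therefore depends on those labels. Of the 27035 probe sets, 12 passed an adjusted p of 0.05 from limma (0.0444%), and 11 of those were lower (0.0407%). Amigo3, Dsp and Wnt10a were among them, and nothing is read from these counts.

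**Figure D1:**
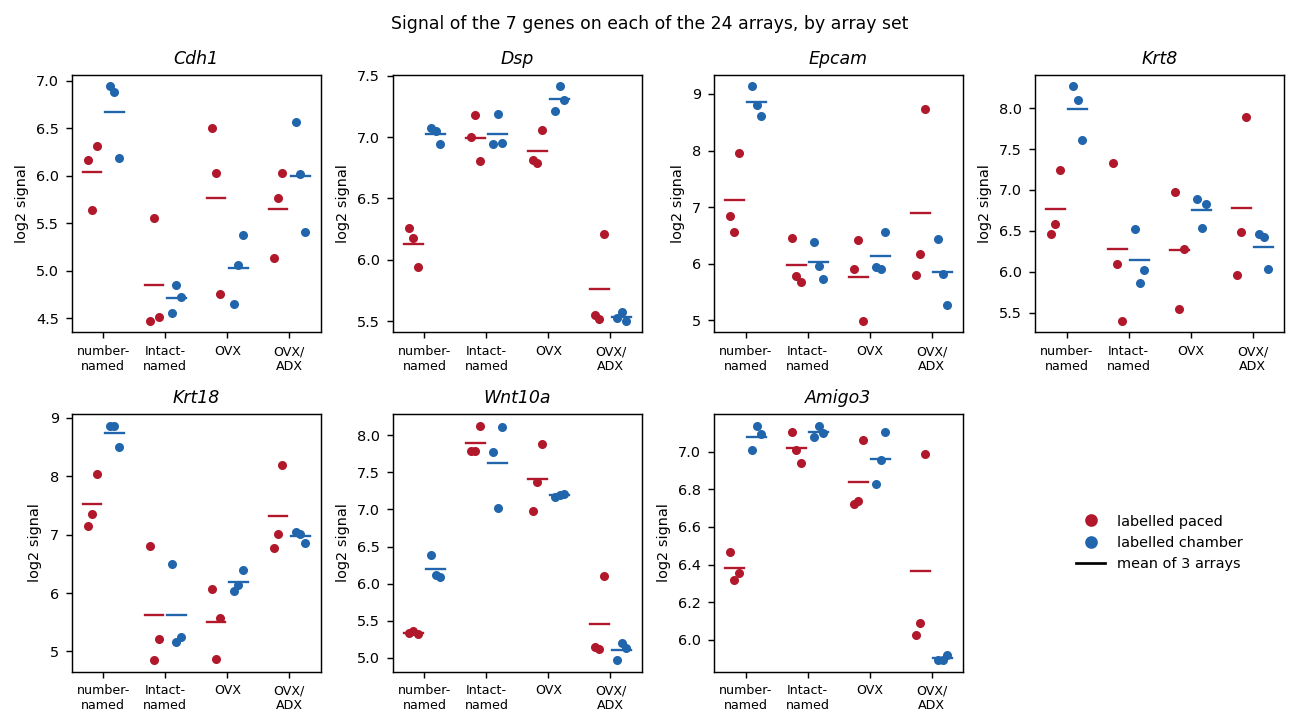
Log2 signal (vertical axis) of the 7 genes on each of the 24 arrays, by array set, with red points for arrays labelled paced, blue points for arrays labelled chamber and a line at the mean of each 3. In the number-named set all red points lie below all blue points for each gene except Cdh1, and in the OVX/ADX set array 2541 stands above the other red points, with Epcam at 8.73.

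E-cadherin, the adherens junction protein encoded at chr19:51402178-51471572, showed the weakest separation. Cdh1 had log2 signals of 6.17, 5.64 and 6.32 on the number-named arrays 2543, 2538 and 2531 labelled paced, and of 6.94, 6.88 and 6.19 on the arrays 2526, 2536 and 2539 labelled chamber. Array 2539 lay within the range of the paced arrays, so the labels overlapped, and the means differed by −0.63. Among Intact-named arrays, Cdh1 was 4.47, 5.55 and 4.51 on Intact-1, Intact-3 and Intact-5, labelled paced, and 4.56, 4.85 and 4.72 on Intact-2, Intact-4 and Intact-6, labelled chamber. There only Intact-3 was high, and the difference was 0.14 ± 0.28 (SE).

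Desmoplakin, encoded at chr17:26829153-26877419, was low on all 3 paced arrays. Dsp had log2 signals of 6.26, 6.18 and 5.94 on 2543, 2538 and 2531, and of 7.08, 7.05 and 6.95 on 2526, 2536 and 2539. The groups did not overlap, and the means of 6.13 ± 0.17 and 7.02 ± 0.07 (SD, n = 3 each) differed by −0.90, which is 1.86-fold. The second Dsp probe set, at 5.71 ± 0.11 and 5.62 ± 0.09 (SD, n = 3 each), differed by 0.08 in the other direction, so the 2 probe sets of the gene disagree. Dsp in the Intact-named set ranged from 6.81 to 7.18 on the paced and from 6.94 to 7.19 on the chamber arrays. The labels overlapped there, with a difference of −0.03 ± 0.13 (SE).

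Epcam had the largest difference of the 7 genes. Its log2 signals were 6.85, 6.57 and 7.96 on 2543, 2538 and 2531, and 9.13, 8.80 and 8.62 on 2526, 2536 and 2539. The chamber arrays lay close together, while 2531 stood above the other paced arrays. The means of 7.12 ± 0.74 and 8.85 ± 0.26 (SD, n = 3 each) differed by −1.73, or 3.31-fold. Epcam in the Intact-named set was between 5.69 and 6.45 on the 3 paced arrays and between 5.73 and 6.39 on the 3 chamber arrays, a difference of −0.05 ± 0.24 (SE).

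Krt8 and Krt18, the keratin pair, also had array 2531 as their highest paced array. Krt8 was 6.46, 6.59 and 7.24 on the paced arrays 2543, 2538 and 2531, and 8.27, 8.10 and 7.61 on the chamber arrays 2526, 2536 and 2539. Krt18 was 7.15, 7.36 and 8.05 on the same paced arrays and 8.87, 8.87 and 8.50 on the same chamber arrays. For both keratins 2539 was the lowest chamber array, and both differed by −1.23, or 2.34-fold. In the Intact-named set, array Intact-1 was the highest for both, with 7.33 for Krt8 and 6.81 for Krt18. The other paced arrays had 6.09 and 5.40 for Krt8 and 4.85 and 5.22 for Krt18. On Intact-2, Intact-4 and Intact-6, Krt8 was 6.53, 5.87 and 6.02 and Krt18 was 6.49, 5.15 and 5.25, so the labels overlapped for both genes.

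Wnt10a encodes a secreted Wnt ligand that acts through beta-catenin, a partner of E-cadherin, and lies at chr9:83798594-83811060. It was 5.33, 5.36 and 5.31 on 2543, 2538 and 2531, and 6.39, 6.11 and 6.08 on 2526, 2536 and 2539. The paced arrays spanned a narrow range, and the difference was −0.86, or 1.81-fold. On Intact-named arrays Wnt10a was 7.78, 7.79 and 8.13 on the paced and 7.77, 7.02 and 8.11 on the chamber arrays, with Intact-4 alone low and a difference of 0.27 ± 0.27 (SE).

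Amigo3, at chr8:117620499-117622025, encodes a membrane protein with leucine-rich repeats of a family of neuronal adhesion proteins. Its log2 signals were 6.47, 6.32 and 6.35 on 2543, 2538 and 2531, and 7.01, 7.14 and 7.09 on 2526, 2536 and 2539. The groups lay apart by more than the range within either, with a difference of −0.70, or 1.62-fold. In the Intact-named set it ranged only from 6.94 to 7.14 over the 6 arrays, with a difference of −0.09 ± 0.09 (SE).

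Anterior pituitary transcripts moved with the labels in the number-named set. All 10 genes of the hormone list, which holds pituitary hormones and receptors for releasing hormones, were lower on the arrays labelled paced. Their median difference was −2.01, and all 12 measured genes of pituitary identity were lower, with a median of −0.66. Over all probe sets the median difference was 0.01 and 44.1% were lower. The score of the hormone list, the median over its genes of the signal centred on the set, ranged from −1.24 to −0.29 on the paced arrays and from 0.95 to 0.98 on the chamber arrays. The arrays fell into separate groups on this score, so no correlation is given. Of 23 measured genes of the meninges, 21 were lower, with a median of −0.56, and their score overlapped between the labels, at −0.85 to 0.15 and −0.01 to 0.43. Of 16 genes of the choroid plexus, 13 were lower, with a median of −0.23. The part of these transcripts in the differences of the 7 genes was not tested.

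The members differed in their level on array 2531, labelled paced. Gh1, growth hormone, had log2 signals of 6.95, 5.96 and 13.33 on 2543, 2538 and 2531, against 14.15, 13.90 and 14.07 on 2526, 2536 and 2539. Prl, prolactin, was likewise at 13.93 on 2531 and at 9.89 and 5.50 on the other paced arrays. Tshb, the beta subunit of thyrotropin, was not high there, at 9.80 on 2531 and 10.27 and 9.25 on 2543 and 2538. On the chamber arrays 2526, 2536 and 2539 Tshb was 11.54, 11.88 and 11.48. The hormone score of 2531 was −0.29, so Gh1 and Prl alone do not give the level of pituitary transcripts on this array. On 2531, Epcam, Krt8 and Krt18 were the highest of the paced arrays and below the lowest chamber array. Cdh1, at 6.32, was also the highest of the paced arrays there, and above the chamber array 2539 at 6.19. Dsp, at 5.94, was at its lowest on the same array, while Wnt10a, at 5.31, and Amigo3, at 6.35, lay with the other paced arrays. The Th signal of 2531, at 11.18, was within the range of the chamber arrays, which was 10.76 to 11.47.

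**Figure D2:**
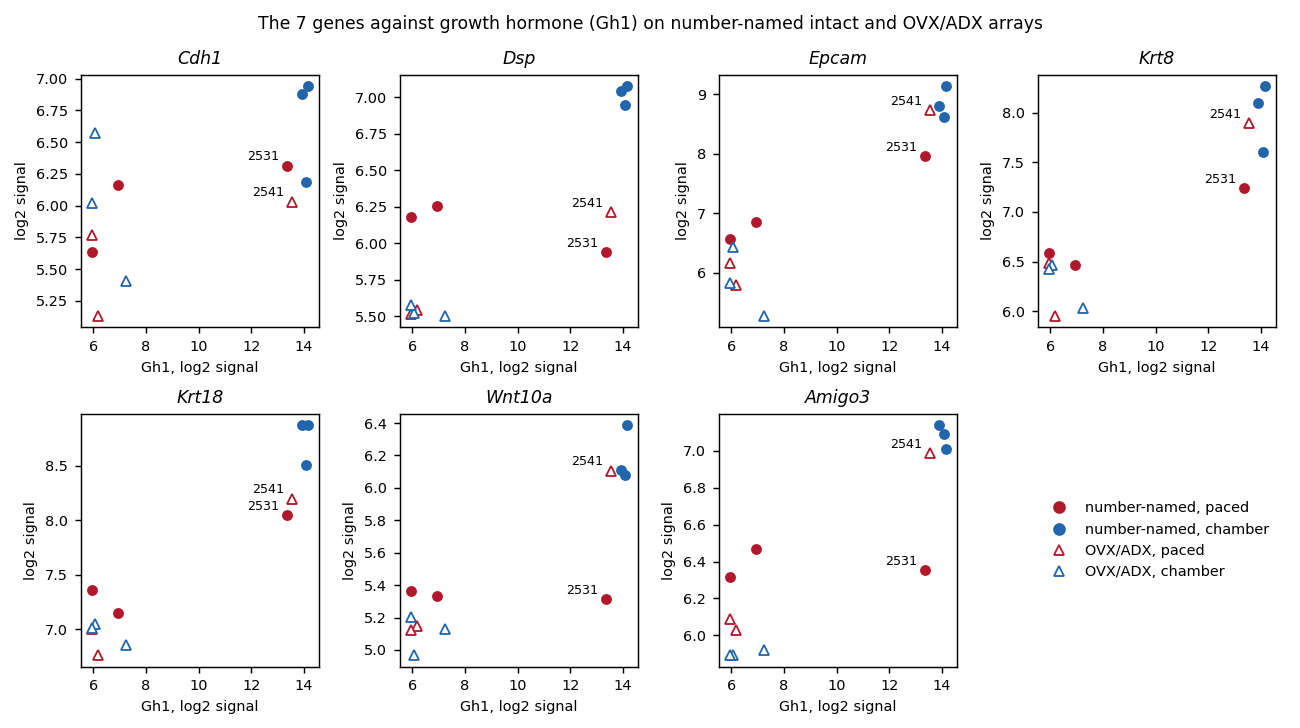
Log2 signal of each gene (vertical axis) against the log2 signal of Gh1 (horizontal axis) on the 6 number-named intact arrays (circles) and the 6 OVX/ADX arrays (triangles), in red for arrays labelled paced and blue for chamber. Array 2531 has a Gh1 signal of 13.33 with low Dsp, Wnt10a and Amigo3, while array 2541, at 13.52, stands above the other OVX/ADX arrays for each gene except Cdh1.

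In OVX/ADX rats, 6 of the 7 genes had their highest signal on array 2541, which is labelled paced. Gh1 was at 13.52 on 2541 and between 5.93 and 7.24 on the other 5 arrays, and the hormone score was 2.25 on 2541 and between −0.48 and −0.17 on the others. Epcam was 8.73 on 2541, 5.80 and 6.17 on the paced arrays 4123 and 4125, and 6.44, 5.83 and 5.28 on the chamber arrays 4124, 4126 and 2530. Krt8 was 7.90 on 2541 and between 5.95 and 6.48 on the others, and Krt18 was 8.20 against 6.77 to 7.05. All 3 epithelial genes thus had a single high array, which was also the array with high growth hormone. Dsp was 6.21 on 2541 and between 5.50 and 5.58 on the others, Wnt10a was 6.11 against 4.97 to 5.20, and Amigo3 was 6.99 against 5.89 to 6.09. Cdh1 did not share the pattern, with 5.13, 5.77 and 6.03 on 4123, 4125 and 2541, and 6.57, 6.02 and 5.41 on 4124, 4126 and 2530.

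No member passed an adjusted p of 0.05 from limma between the mating labels of OVX/ADX rats, and no probe set did (0%). At an unadjusted p of 0.05, 0 of the 7 genes and 2.47% of all probe sets were called. The differences were 1.05 ± 0.74 for Epcam, 0.47 ± 0.45 for Krt8, 0.35 ± 0.34 for Krt18, 0.36 ± 0.25 for Wnt10a, 0.46 ± 0.24 for Amigo3, 0.22 ± 0.18 for Dsp and −0.36 ± 0.33 for Cdh1 (each ± SE). Amigo3 was the member whose labels did not overlap with paced higher, as for 2.69% of all probe sets. Without array 2541, the difference was −0.09 for Krt8, −0.09 for Krt18, −0.0030 for Dsp, 0.034 for Wnt10a, 0.14 for Epcam, 0.15 for Amigo3 and −0.55 for Cdh1. With single arrays left out, the Cdh1 difference ranged from −0.65 without 2530 to −0.070 without 4124. Without both 2541 and 2530 it was −0.85 ± 0.26 (SE), with an unadjusted limma p of 0.0202 and an adjusted p of 0.582. Of the 10 genes of the hormone list, 9 were higher on the arrays labelled paced, with a median difference of 0.86 and 0 at an unadjusted p of 0.05.

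A second pituitary hormone gene set the OVX/ADX arrays in another order. Tshb, the beta subunit of thyrotropin, was at 11.54 on 2541, but also at 11.17 on 4124 and 10.89 on 4125, and between 4.53 and 7.24 on 4123, 4126 and 2530. On 4124 and 4125, where Gh1 was 6.06 and 5.96, Dsp was 5.52 on both arrays, Wnt10a 4.97 and 5.12, and Amigo3 5.90 and 6.09. Epcam was 6.44 and 6.17 there, Krt8 6.46 and 6.48, and Cdh1 6.57 and 5.77, with Krt18 at 7.05 on 4124. Cdh1 was thus at its highest of the set on 4124, and Epcam and Krt8 had their next highest signals after 2541 on these 2 arrays. On 4126, where Tshb was 6.50, Krt8 was close behind at 6.42, and Krt18, at 7.01, was level with 4125.

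In OVX rats, Dsp was the member with the clearest difference. It was 6.81, 6.78 and 7.06 on the arrays OVX-1, OVX-3 and OVX-5, labelled paced, and 7.22, 7.42 and 7.30 on OVX-2, OVX-4 and OVX-6, labelled chamber. The groups did not overlap, which held for 1 of the 7 genes and 3.5% of all probe sets in this direction. The difference was −0.43 ± 0.10 (SE), with an unadjusted p of 0.00401 and an adjusted p of 1.00 from limma. By an exact two-sided permutation test p was 0.10, the smallest that 3 against 3 arrays allow. The second Dsp probe set differed by −0.07 ± 0.07 (SE).

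Krt18 was 6.07, 4.87 and 5.57 on the OVX arrays labelled paced and 6.03, 6.14 and 6.39 on those labelled chamber. OVX-3 and OVX-5 were low while OVX-1 lay among the chamber arrays, and the difference was −0.68 ± 0.28 (SE), with an unadjusted limma p of 0.0439. It ranged from −0.97 without OVX-1 to −0.37 without OVX-3. Krt8 was 6.97, 5.54 and 6.28 against 6.89, 6.53 and 6.83, again with OVX-3 lowest, and differed by −0.49 ± 0.33 (SE), or by −0.84 and −0.12 without OVX-1 and without OVX-3. Cdh1, in contrast, was 6.50, 6.03 and 4.75 against 4.65, 5.05 and 5.37, a difference of 0.74 ± 0.43 (SE) with overlapping labels, which was 0.37 without OVX-1 and 1.24 without OVX-5. Epcam, lowest on OVX-5, overlapped between the labels and differed by −0.36 ± 0.35 (SE). Wnt10a and Amigo3 differed by 0.22 ± 0.21 and −0.12 ± 0.12 (SE). None of the 7 genes passed an adjusted p of 0.05 (0% of all probe sets), and 2 were lower at an unadjusted p of 0.05, against 1.55% of all probe sets.

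**Figure D3:**
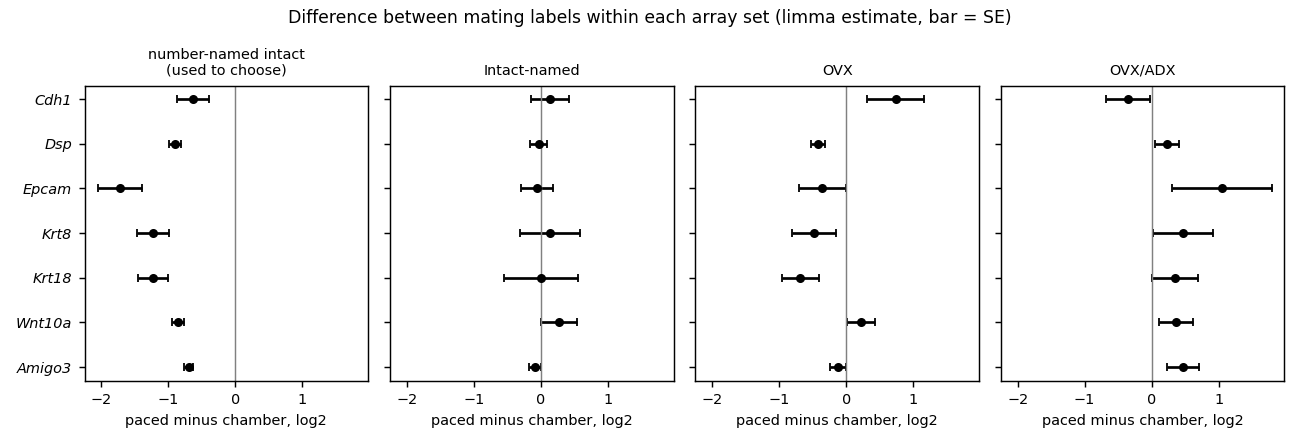
Difference between arrays labelled paced and chamber (horizontal axis, log2) for each of the 7 genes within each array set, as the limma estimate with bars of 1 SE. The differences of the number-named set, on which the genes were chosen, run from −1.73 for Epcam to −0.63 for Cdh1, while those of the OVX/ADX set are above 0 for each gene except Cdh1.

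Choroid plexus transcripts moved with the mating labels in OVX rats. All 16 measured genes of the list were lower on the arrays labelled paced, with a median difference of −0.93, against a median of 0.00 over all probe sets. Of these, 13 had an unadjusted p below 0.05 and 0 passed the adjusted threshold. The score of the list ranged from −1.03 to −0.19 on the paced and from 0.27 to 0.71 on the chamber arrays. Ttr, transthyretin, a major secreted protein of this epithelium, was 13.98, 10.22 and 13.82 on OVX-1, OVX-3 and OVX-5, and between 14.34 and 14.53 on the chamber arrays. All 7 measured genes of the ependyma were also lower, with a median of −0.41. The part of these transcripts in the differences of Dsp and Krt18 was not tested.

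Gonadal state was compared between the Intact-named and OVX arrays of the shared run with the mating label as a covariate. The titles of the Intact-named arrays share 1 leading code and those of the OVX arrays another, so gonadal state and that code cannot be told apart. Wnt10a was 7.77 ± 0.40 in intact and 7.30 ± 0.31 in OVX rats (SD, n = 6 each), a difference of 0.47 ± 0.18 (SE) with an adjusted limma p of 0.173. Amigo3 differed by 0.16 ± 0.07 (SE), with an adjusted p of 0.225, and Cdh1 by −0.62 ± 0.29 (SE), with 0.243. For each of these genes the arrays of the groups overlapped. Krt8, Krt18, Epcam and Dsp differed by −0.30 ± 0.31, −0.22 ± 0.35, 0.05 ± 0.23 and −0.09 ± 0.10 (SE). None of the 7 genes passed an adjusted p of 0.05, as 1.44% of all probe sets did, and 2 had an unadjusted p below 0.05, against 21% of all probe sets. Of the 23 genes of the meninges, 22 were lower in intact rats, with a median of −0.45, and of the 16 choroid plexus genes 14 were lower, with a median of −0.49, where 49.7% of all probe sets were lower.

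The mating difference itself was compared between intact and OVX rats in the same run. The intact difference took part in the choice of the genes, so the interaction is given as a description and without a test. For Dsp the mating difference was −0.03 in the Intact-named and −0.43 in the OVX set, with an interaction of 0.40 ± 0.17 (SE). The interactions of the other 6 genes ranged from −0.60 ± 0.57 for Cdh1 to 0.68 ± 0.70 for Krt18 (SE). None passed an adjusted p of 0.05, against 0.0074% of all probe sets, and 1 of 7 had an unadjusted p below 0.05, against 4.96%. Over all 12 intact arrays, with the set as a term, the differences ranged from −0.89 ± 0.33 for Epcam to −0.25 ± 0.23 for Cdh1 (SE).

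Krt18 and Krt8 followed the choroid plexus score across the 12 arrays of the shared run. Krt18 was highest on Intact-1 and Intact-2, where the score was 1.28 and 0.92, and lowest on Intact-3 and OVX-3, where it was −0.74 and −1.03. After centering on each set, Pearson's r was 0.95 and Spearman's rho 0.94 for Krt18, with adjusted p of 0.00378 and 0.0063 by a two-sided permutation test within sets with 100000 resamples. For Krt8, r was 0.86 and rho 0.80, with adjusted permutation p of 0.0106 and 0.0465. Without the 2 arrays farthest from the median of the score, r was 0.89 for Krt18 and 0.78 for Krt8. Within the sets, r for Krt18 was 0.97 in the Intact-named set, with an exact permutation p of 0.00278 and 0.0583 after adjustment, and 0.90 in the OVX set, with 0.0167 and 0.204. Without the 2 farthest arrays of each set these were 0.64 and 0.52. For Krt8, r was 0.89 and 0.82 in the same sets, with adjusted exact permutation p of 0.131 and 0.243. The score overlapped between the mating labels in the Intact-named set but fell into separate groups by label in the OVX set. The permutations took no account of the label. The OVX relations, and the part of the OVX arrays in the 12-array relations, therefore cannot be told apart from the label difference. In OVX/ADX rats r was 0.38 for Krt18 and 0.35 for Krt8, with an adjusted exact permutation p of 0.820 for both. On the number-named arrays, where 2539 stood apart on the score, r was 0.23 and 0.15 as a description, and −0.62 and −0.55 without the 2 farthest arrays. The choroid plexus list was added to this comparison after the values had been seen, and p-values were adjusted over the 21 relations of 7 genes with 3 lists. Between the keratins themselves, r over the 12 arrays was 0.87, with an adjusted permutation p of 0.0317 over 21 pairs, and rho 0.81, with 0.0941.

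E-cadherin had a positive correlation with the meningeal score in each of the 4 sets, and so had Epcam, Krt8 and Krt18. In the number-named, Intact-named, OVX and OVX/ADX sets r was 0.86, 0.49, 0.58 and 0.24 for Epcam. In the same order it was 0.81, 0.51, 0.04 and 0.28 for Krt8, and 0.79, 0.21, 0.03 and 0.18 for Krt18. Every member had a positive r in the number-named set, from 0.57 for Dsp to 0.94 for Cdh1. Over the number-named arrays, as a description, r between Cdh1 and the meningeal score was 0.94 and rho 0.94. In OVX/ADX rats r was 0.92 and rho 0.77, with an exact permutation p of 0.0167 for r and 0.185 after adjustment, and r was 0.87 without the 2 farthest arrays. In OVX rats r was 0.82, with an exact permutation p of 0.0472 and 0.248 after adjustment, and in the Intact-named set r was 0.25, with an exact permutation p of 0.551, and −0.033 without the 2 farthest arrays. Over the shared run r was 0.66 and rho 0.64, with adjusted permutation p of 0.211 and 0.261, so the relation did not pass the adjusted threshold.

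Wnt10a had a negative correlation with the meningeal score in the shared run. Its r was −0.78, with an adjusted permutation p of 0.0205, but rho was −0.61, with 0.261, and r was −0.56 without the 2 farthest arrays. Within the Intact-named set r was −0.84 and within the OVX set −0.79, with adjusted exact permutation p of 0.180 and 0.263, and in the OVX set r was 0.69 without the 2 farthest arrays. Its highest array of the OVX set was OVX-5, with a score of −0.80, and its lowest array of the Intact-named set was Intact-4, with a score of 0.43. The negative sign was not shared by the other sets. On the number-named arrays, as a description, r was 0.64, and 0.61 without the 2 farthest arrays. In OVX/ADX rats r was −0.08, with an adjusted exact permutation p of 0.881. With the hormone score, whose genes had low signals throughout the shared run, with Gh1 between 5.77 and 6.08, no member had an adjusted permutation p of r below 0.429. Over the sets of 6 arrays, 0 of 35 relations with the hormone and meningeal scores passed the adjusted threshold and 5 had an unadjusted exact permutation p below 0.05. The 7 relations with the hormone score in the OVX/ADX set are not among them, since array 2541 stood apart on that score, and their array values are given above. The 5 include Dsp with the hormone score in OVX (r 0.85, exact permutation p 0.0194, adjusted 0.204). Score and Dsp both split by label there, so relation and label difference cannot be told apart. They also include Dsp with the meningeal score in the Intact-named set (r 0.84, exact permutation p 0.0361, adjusted 0.180). That r was −0.33 in OVX and 0.03 in OVX/ADX rats. With the hormone score, r of Dsp was −0.37 in the Intact-named set.

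**Figure D4:**
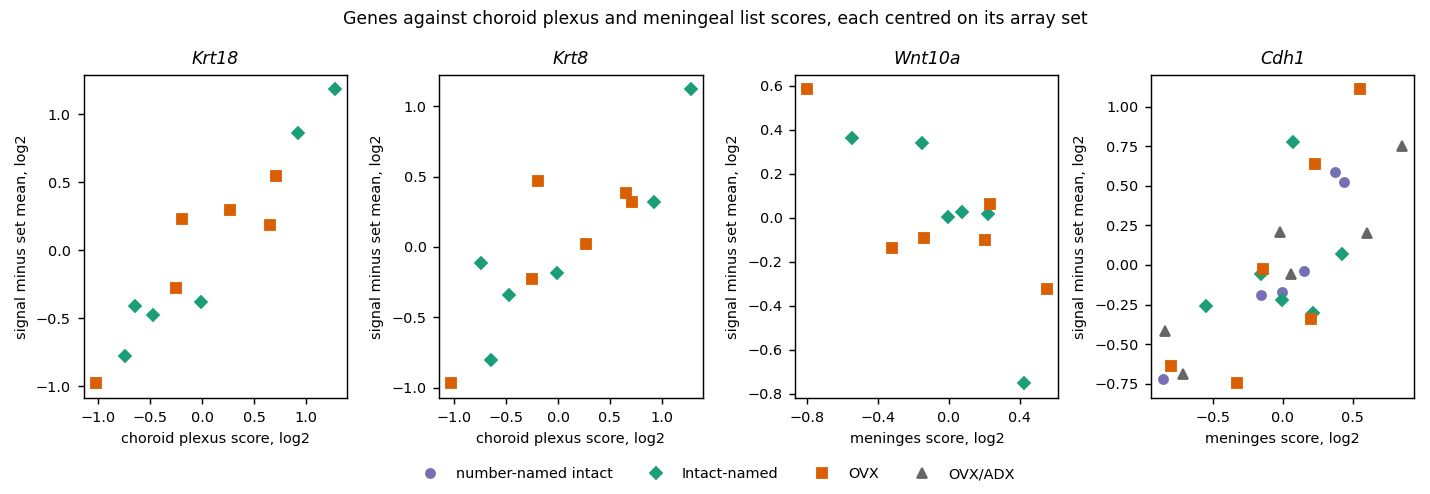
Signal of Krt18, Krt8, Wnt10a and Cdh1 minus the mean of the array set (vertical axis, log2) against the score of the choroid plexus or meningeal list (horizontal axis, log2), 1 point per array, with the symbol showing the set. The points of Krt18 rise with the choroid plexus score (r 0.95 over 12 arrays) and those of Wnt10a fall with the meningeal score (r −0.78).

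The junction partners of the members were counted by list in the number-named set, as a description. Of 12 measured desmosome genes, 5 were lower, Dsp among them, with a median of 0.02. Pkp2, plakophilin 2 of the desmosomal plaque, and Dsg2, desmoglein 2, differed by −0.88 ± 0.17 and −0.71 ± 0.13 (SE). Of 12 tight junction genes, 8 were lower, with a median of −0.20, including Lsr at −0.50 ± 0.12 and the claudin Cldn3 at −0.49 ± 0.09 (SE). Of 13 adherens junction genes, 9 were lower, with a median of −0.05, and of 11 keratins 9 were lower, with a median of −0.08. Apart from Krt8 and Krt18, the largest keratin difference was that of Krt7, at −0.26 ± 0.08 (SE). Of 21 genes of epithelial identity, 15 were lower, with a median of −0.12, including the splicing regulator Esrp1 at −0.68 ± 0.18 and the protease inhibitor Spint2 at −0.61 ± 0.12 (SE). No gene of these 5 lists except Dsp passed the adjusted threshold. Dsp was chosen on this contrast, so nothing is read from its call.

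In OVX rats 9 of the 12 desmosome genes were lower, with a median of −0.11, where 49.1% of all probe sets were lower. Dsg2 and Pkp2 had differences of −0.49 ± 0.14 and −0.61 ± 0.23 (SE), with unadjusted p of 0.00895 and 0.0341 and adjusted limma p of 1.00. Of 12 tight junction genes 10 were lower, with a median of −0.11, and Cldn2, a claudin that is also on the choroid plexus list, differed by −2.25 ± 0.57 (SE, adjusted limma p 1.00). Cldn1, which is on both lists too, differed by −0.50 ± 0.14 (SE). Both had an unadjusted limma p below 0.05, so the tight junction and choroid plexus counts share genes. Of 11 keratins 5 were lower, with a median of 0.02. In OVX/ADX rats 6 of 12 desmosome genes and 3 of 11 keratins were lower, with medians of −0.01 and 0.04, where 50.9% of all probe sets were lower, and Dsg2 differed by 0.36 ± 0.12 (SE, unadjusted p 0.0201). No gene of the desmosome, tight junction or keratin lists passed an adjusted limma p of 0.05 in either group, and 4, 3 and 1 of them had an unadjusted p below 0.05 in OVX rats, against 2.42% of all probe sets.

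Wnt10a had the largest difference of the measured Wnt ligands in the number-named set. Of 11 ligands 6 were lower, with a median of −0.03, and after Wnt10a the largest difference was −0.16 ± 0.10 (SE) for Wnt2. Of 25 Wnt receptors, inhibitors and target genes 12 were lower, with a median of 0.02, and Sfrp5, a secreted Wnt inhibitor, differed by −0.65 ± 0.11 (SE). Between intact and OVX rats, Wnt16 was higher in intact rats by 0.58 ± 0.13 (SE), with an adjusted limma p of 0.0454, and Wnt7a differed by 0.28 ± 0.08 (SE), with 0.0836. Without array OVX-4, 0 probe sets passed in that comparison. Amigo1 and Amigo2, the family members of Amigo3, differed by 0.11 ± 0.08 and −0.07 ± 0.10 (SE) in the number-named set.

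Repressors that bind the E-box shown above and that are known to silence E-cadherin had differences near 0 in the number-named set. Of 6 measured genes 3 were lower and 3 higher, with a median of −0.02 and 0 at an unadjusted p of 0.05, and Zeb2 and Snai1 differed by 0.15 ± 0.12 and −0.11 ± 0.09 (SE). In OVX/ADX rats Zeb2 differed by −0.41 ± 0.12 (SE), with an unadjusted p of 0.0113 and an adjusted limma p of 1.00.

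The genes whose pattern was most like that of each member were found over the 24 arrays, each centred on its set, among 13081 genes. For Krt8 and Krt18 these included each other at r 0.92 and Tent5a, a poly(A) polymerase, at 0.95 and 0.92. For Epcam they were Ssr4, Dap and Prrc1, at 0.95, 0.93 and 0.92, where Ssr4 is a subunit of the translocon-associated complex of the endoplasmic reticulum. For Dsp they were Pabpc4 at 0.93, Amigo3 at 0.87 and Ssr3 at 0.87, and for Amigo3 they were Smco4 at 0.91, Sec61b at 0.90 and Giot1 at 0.89. Wnt10a was most like Avpi1, Nr4a1 and Ica1, at 0.84, 0.83 and 0.83. For Cdh1 they were Tnnt2 at 0.85, Slc47a1 at 0.84 and Ch25h at 0.84. No member was among the genes listed for Cdh1, Epcam or Wnt10a. The arrays share their normalization runs, and these correlations carry no test.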

How the data were processed

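Total RNA of dissected midbrain was measured on Affymetrix rat arrays. The authors deposited log2 signals per probe set, and the submitters' processing notes name RMA and Affymetrix Expression Console 1.4, whereas the study's methods name GCRMA. Of 31099 probe sets, 57 are controls, and a probe set was kept if its signal reached percentile 20 of at least 3 of the 24 arrays. Genes are represented by the probe set with the highest mean. Differences were fitted with limma 3.58.1 in R 4.3.3 over all 27035 kept probe sets, with Benjamini-Hochberg adjustment and a threshold of 0.05, within sets of arrays or within the shared run. Correlations were tested by permutation in Python 3.11.15, exactly over the 720 pairings of 6 arrays. Calling was tested on simulated data. All probe sets of the 7 genes are reported, with up to 4 genes per list by the smallest p, or by the largest difference where the contrast chose the members. Members and lists were chosen with earlier results of these data known. Alternatives covered the filter, scaling, eBayes options, a plain per-probe-set test, single arrays, the replicate block and the covariate. The number of arrays limits the precision.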

Additional observations from a re-analysis of the deposited data

Results flagged for a closer look

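In groups of 6 arrays, a single array was far from the others in 8 of the 32 groups tested, where chance gives about 1 in 20. The measure is the gap to the nearest array divided by the range of the group, with a critical value of 0.625. On the OVX/ADX array 2541 it was 0.895 for Dsp, 0.822 for Amigo3, 0.800 for Krt18, 0.796 for Wnt10a, 0.727 for Krt8 and 0.665 for Epcam. In each case 2541 was the highest array. These 6 values come from the same array and are not independent of each other, and Gh1 on that array was 13.52 against 5.93 to 7.24 on the others. In the Intact-named set, Cdh1 was far above the others on Intact-3, at 0.653, and Wnt10a far below on Intact-4, at 0.677.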

How the results depend on the processing

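The number of probe sets past the threshold in the number-named set was 12, and it was 5 with a filter at the 50th percentile, 2 after quantile normalization, 19 with array medians subtracted, and 2 to 58 with single arrays left out. In the Intact-named set the count was 4, and 1 to 15 with single arrays left out. Over all intact arrays it was 0, and 0 to 1. Between intact and OVX rats it was 388, with 84 by the plain test and 0 to 443 with single arrays left out. With the replicate block it was 375. The correlation of same-numbered deviations ranged from 0.0176 to 0.314. Differently numbered arrays were not compared, so pairing by title number was not tested. For the interaction it was 2, with 1 by the plain test and 1 to 9 with single arrays left out. For mating in OVX and in OVX/ADX rats it was 0 under every alternative run. No member was called under any alternative for mating in OVX rats, for mating in OVX/ADX rats or between intact and OVX rats. For the members the interaction is a description only. For relations with the hormone and meningeal scores the count was 0 within sets and 1 over the shared run.

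Some differences changed sign with single arrays left out. In OVX rats these ranged from −0.019 to 0.43 for Wnt10a and from −0.68 to 0.031 for Epcam. In OVX/ADX rats they ranged from −0.087 to 0.88 for Krt8, −0.088 to 0.63 for Krt18, −0.0030 to 0.35 for Dsp and −0.051 to 0.11 for its second probe set. Without 2541 and 2530 they were −0.22 for Krt8, −0.15 for Krt18, −0.15 for Epcam and −0.019 for Dsp. Between intact and OVX rats they ranged from −0.14 to 0.18 for Epcam and from −0.071 to 0.037 for the second Dsp probe set, which was 0.022 after quantile normalization. The interaction ranged from −0.25 to 0.29 for Wnt10a, −0.085 to 0.63 for Epcam and −0.035 to 0.15 for Amigo3. Without the 2 farthest arrays, r with the meningeal score was −0.033 for Cdh1 in the Intact-named set, and 0.69 and 0.038 for Wnt10a in the OVX and OVX/ADX sets. The cause was not tested. The choice of the 12-array relations and of the choroid plexus list came after seeing the data.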

Other observations

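The immunity transcript Cd74, the invariant chain of MHC class II, was lower by 1.16 ± 0.30 (SE) on the number-named arrays labelled paced, as the epithelial genes were, and S100g, a calcium-binding protein of epithelia, was among the 12 probe sets past the threshold there, with a difference of −3.91 ± 0.35 (SE). In the OVX set, the endothelium list moved opposite to the choroid plexus, with 10 of 11 genes higher on the arrays labelled paced and a median of 0.17. No endothelial gene passed the adjusted threshold. The directions in the number-named set follow its deposited labels, and those of Cd74 and S100g are the opposite of the ones the study describes. These genes and this list were picked after their values had been seen.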
